A study of Mus musculus with 3 samples.

Results

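The comparison described here sets ScxGFP-positive hindlimb cells of mouse embryos at E13.5 against the same sorted population at E11.5, gene by gene. Its members are all genes whose estimate carried the status OK in both libraries, 21858 of the 22072 gene symbols listed. The other 214 were left out for their status. The E11.5 library came from 18 pooled hindlimbs and the E13.5 library from 12, of mixed strain background. All cells carried a GFP reporter of Scx and were sorted for GFP by flow cytometry, and cDNA was amplified from their total RNA with a kit for small inputs (NuGEN Ovation RNA-Seq v2). The library from 11 pooled hindlimbs at E15.5 is given beside the others for the later course only. The steps before and after E13.5 share the E13.5 library, so they are not independent. Each stage has 1 library, so the differences below have no replicate check and no p-value is given.

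Scx encodes scleraxis, a basic helix-loop-helix transcription factor that marks the progenitors of tendons and ligaments. In the limb bud these cells lie in a field of mesenchyme patterned by Hox, Meis and zinc finger factors and by FGF, Hedgehog, BMP and Wnt signals. The progenitors later align between muscle and cartilage under TGF-beta signals and start to make tendon matrix. Scx is the gene behind the sort. It stood at 375, 409.8 and 213 FPKM in stage order (E11.5, E13.5, E15.5), a high level in each library.

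Levels are in FPKM, fragments scaled to transcript length and library size, summed over the transcripts of a gene symbol. Where a gene is given 3 values they are in the order E11.5, E13.5 and E15.5. A change is log2(FPKM + 1) at E13.5 minus the same at E11.5, and adding 1 makes changes of weakly expressed genes look smaller. A gene is counted as higher or lower when the change reached 2-fold in that direction on this scale. Between 10364 and 11132 genes reached 1 FPKM in each of the 3 libraries. Depth, estimated from low coverage values, was between 1.23e+07 and 1.73e+07 reads on the listed transcripts, which puts the counting error of a 2000-base transcript at 10 FPKM between 3.63% and 4.01%. The 95% intervals given for a few genes are Poisson intervals on those estimated reads, so they hold counting error and no other.

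By this rule 689 of the 21858 genes were higher at E13.5 (3.15%) and 148 were lower (0.677%), with a median change of 0. Among the 10659 genes that averaged at least 1 FPKM over both libraries, 614 were higher (5.76%) and 119 lower (1.12%), with a median change of 0.06. Very short genes made up an uneven part of these counts. Of 668 genes whose longest transcript was under 200 bases, 50 were lower, 33.8% of all lower genes, and 29 were higher. Without them 660 genes were higher and 98 lower.

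Gene lists were set up for 6 roles: transcription factors, receptors and adhesion molecules, ligands and other secreted regulators, transporters and channels, metabolic enzymes, and a group for growth, chromatin and stress. The last set holds markers of cell types. Together the 92 lists name 3559 measured genes, 3539 of them with status OK. Over all members with status OK, 58 of 418 ligands and secreted regulators were higher (13.9%) and 3 lower. Transcription factors had 65 of 592 higher (11.0%) and 17 lower (2.87%), and receptors and adhesion molecules 56 of 698 higher (8.02%) and 2 lower. The growth, chromatin and stress role had 15 of 283 higher (5.30%) and 8 lower (2.83%). Transporters and channels had 28 of 806 higher (3.47%) and 3 lower, and metabolic enzymes 17 of 666 higher (2.55%) and 9 lower (1.35%). These shares depend on how many members were expressed, from 138 ligands to 484 metabolic genes that averaged at least 1 FPKM. Among such members the higher share was 38.4% for ligands, 20.7% for receptors, 17.6% for transcription factors, 7.14% for transporters, 5.66% for the growth, chromatin and stress role and 3.10% for metabolic enzymes. The same share over all genes so filtered was 5.76%, so receptors then stand above transcription factors, transporters above all genes and metabolic enzymes below. A gene can pass this filter through either library, so the filtered shares are a description only. Lists and members were chosen with earlier results of these data known, so all shares by role and list are likewise description and no test. Genes named below are the largest changes and highest levels of each role and list, and other members named beside them belong to the same family, list or pathway and were chosen after their values were seen.

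**Figure D1:**
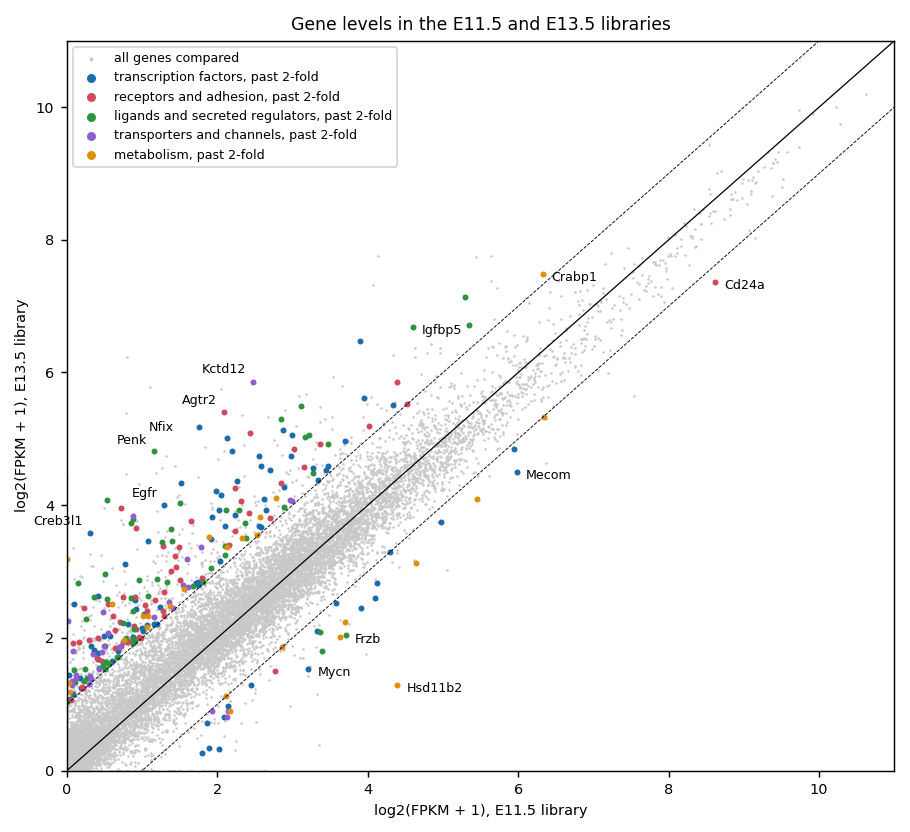
Levels of the 21858 genes on the log2(FPKM + 1) scale in the E11.5 library (x axis) and the E13.5 library (y axis). Grey points are all genes, coloured points are list members past 2-fold, the solid line marks equal levels and the dashed lines 2-fold. More coloured points lie above the upper dashed line than below the lower one, and the metabolic gene Hsd11b2 lies far below it at 19.98 and 1.44 FPKM.

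**Figure D2:**
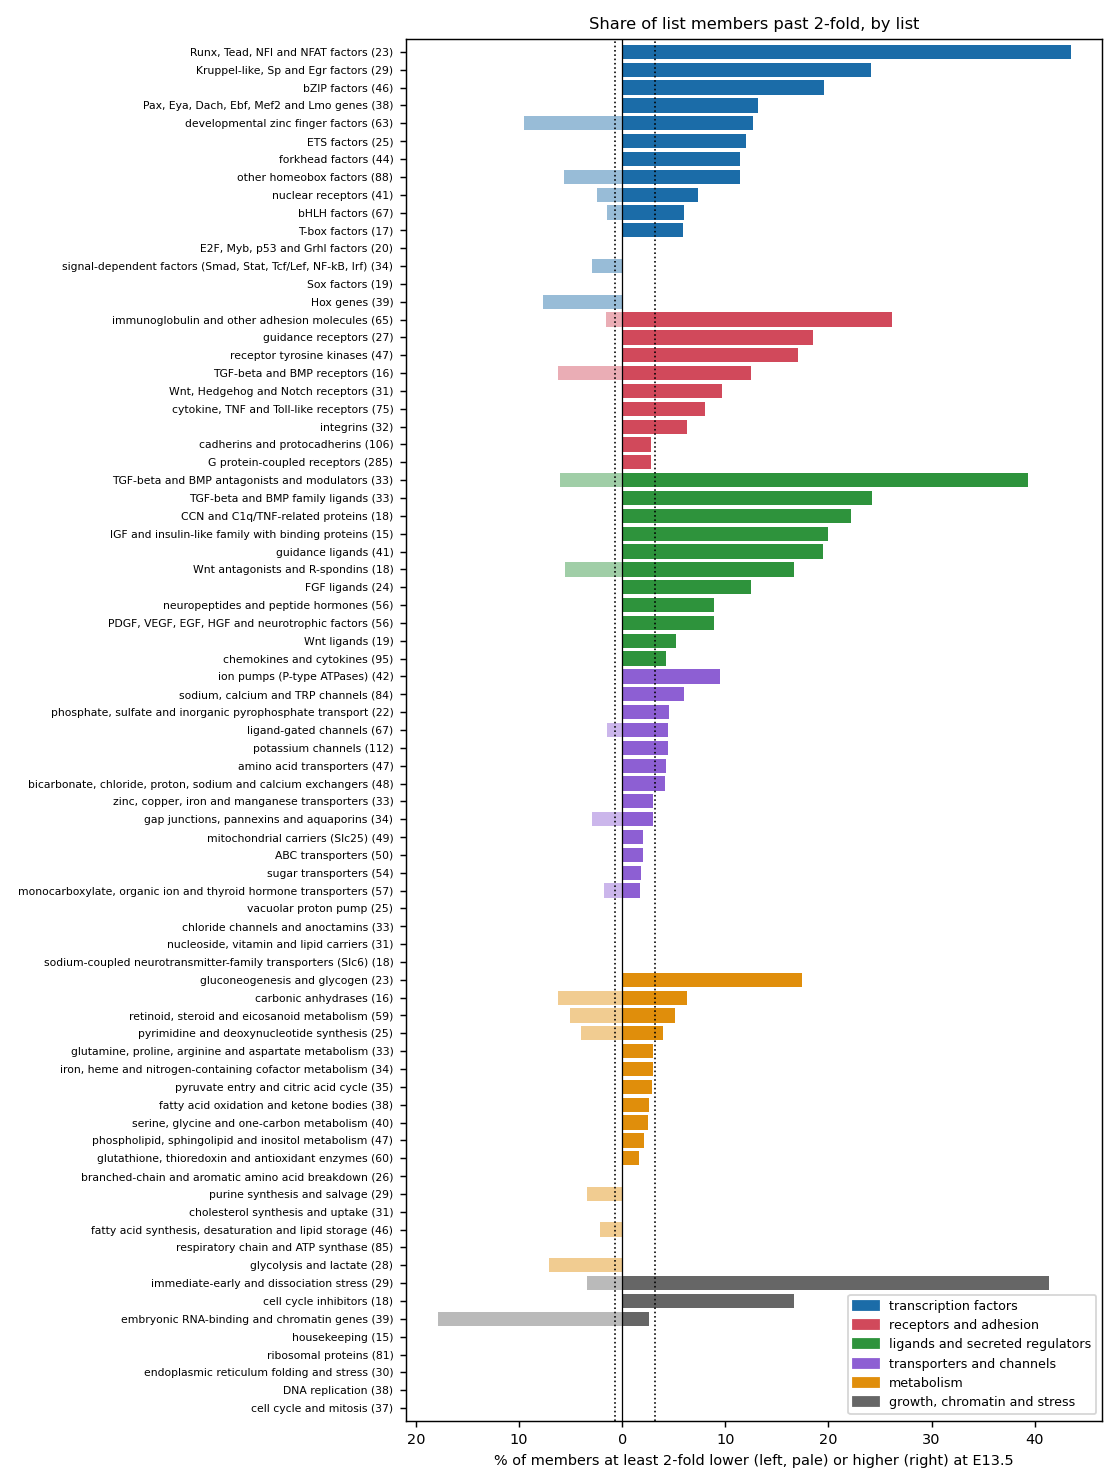
Share of the members of each list with at least 15 members of status OK (number in brackets) that were at least 2-fold higher (right) or lower (left, pale) at E13.5. Dotted lines mark the 3.15% and 0.677% of all genes, and outside the marker lists the Runx, Tead, NFI and NFAT list reaches 43.5% on the higher side while the embryonic RNA-binding and chromatin list reaches 17.9% on the lower side.

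Markers of cell types were read before the roles. Of 12 tendon and ligament markers 11 were higher and none lower. In these bulk samples, fewer cells of a type and less RNA per cell cannot be told apart. Of 19 skeletal muscle markers, 6 were higher and none lower, and their summed level was 19.4, 86.6 and 267 FPKM in stage order. Actc1, an actin gene of embryonic muscle, made up 5.35, 39.3 and 164 FPKM of those sums. Of the 10 muscle markers that averaged at least 1 FPKM, 9 were above their E11.5 level and 1 below. The lowest change among the 19 was -0.97, and Ckm was listed at 0 at E13.5 but not at E11.5. Of 16 cartilage markers, 11 were higher, with summed levels of 176, 376 and 554 FPKM. Of 10 bone markers, 3 were higher, and the defining genes Ibsp and Dmp1 were listed at 0 at E11.5. Of 13 erythroid markers, 2 were higher, with sums of 11.47, 21.5 and 88.6 FPKM. The 14 endothelial markers summed to 3.32 and 11.7 FPKM at the compared stages. Erg, an ETS factor that cartilage and joint cells also express, made up 0.708 and 7.65 FPKM of those sums, and no other endothelial marker reached 1 FPKM in either library. Of 13 leukocyte markers none was higher, and the sum was 6.13 and 3.31 FPKM. The defining genes C1qa, C1qc and Tyrobp were listed at 0 in both libraries. Ptprc, Aif1 and C1qb were listed at 0 at E11.5 but not at E13.5. Of 11 smooth muscle and pericyte markers, 2 were higher (sums of 27.3 and 42.5 FPKM), and of 11 neuronal markers likewise 2 (6.18 and 12.0 FPKM). Of 10 markers of dermal and connective fibroblasts, 4 were higher (192 and 371 FPKM), of 13 epidermal markers 1 (5.41 and 9.62), and of 13 Schwann cell and melanoblast markers none (5.64 and 5.17). The part of these cell types in the results below was not tested.

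Among transcription factors, the list of Runx, Tead, NFI and NFAT factors had 10 of 23 members higher and none lower. All 4 nuclear factor I genes, which encode DNA-binding factors that act late in the maturation of many embryonic tissues, were among them. Nfix (chromosome 8, 87231498 to 87324239, in mm9 as all gene positions below) was at 2.38, 35.0 and 89.2 FPKM, with counting intervals of 2.09 to 2.69 at E11.5 and 33.8 to 36.3 at E13.5. Nfib was at 3.56, 27.1 and 53.5 FPKM and Nfia at 5.003, 23.0 and 40.2 FPKM. Nfic was at 3.27, 11.9 and 30.5 FPKM. All 4 thus had their lowest level at E11.5 and their highest at E15.5. Of the NFAT genes, whose products respond to calcium through calcineurin, Nfatc1 was at 4.87, 25.7 and 23.6 FPKM, whereas Nfatc4 was at 22.5, 21.5 and 20.1 FPKM. The Runx genes, known for their parts in bone, blood and cartilage, took different courses. Runx3 was at 0.334, 5.20 and 2.27 FPKM and Runx2 at 3.71, 13.4 and 6.60 FPKM, both highest at E13.5. Runx1 was at 0.511, 2.13 and 2.69 FPKM, highest at E15.5. Among the Tead genes, the DNA-binding partners of Yap and Taz, Tead2 was at 31.4, 21.1 and 13.1 FPKM and Tead3 at 2.81, 4.09 and 4.07 FPKM, neither past 2-fold.

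Basic leucine zipper genes had 9 of 46 members higher and none lower. Creb3l1 (chromosome 2, 91822485 to 91864327) encodes an endoplasmic reticulum-bound factor that acts on secretory and collagen genes. It was at 0.233, 11.0 and 37.0 FPKM. Its paralog Creb3l2 started from a higher level, at 19.2, 44.8 and 54.2 FPKM, and the other 3 members of the subfamily did not reach 2-fold, with changes of 0.47 for Creb3, 0.27 for Creb3l4 and 0.09 for Creb3l3. Creb5 was at 2.82, 13.2 and 12.6 FPKM. The AP-1 genes differed among themselves: Fosb was at 1.85, 19.2 and 20.4 FPKM and Fos at 6.96, 32.4 and 63.4 FPKM, while Jun was at 56.0, 78.9 and 92.4 FPKM and Jund at 18.0, 18.7 and 26.8 FPKM.

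Krüppel-like, Sp and Egr factors had 7 of 29 members higher and none lower, among them Klf4 at 3.15, 16.7 and 23.6 FPKM and Klf6 at 6.90, 25.9 and 27.2 FPKM. Klf2, a factor known for its response to fluid flow in vessels, was at 2.75, 10.3 and 19.96 FPKM. Several of these genes also stand on the list of immediate-early and dissociation stress genes, which respond within minutes to handling as well as to growth factors. On that list 12 of 29 members were higher and 1 lower. Nr4a1, an orphan nuclear receptor of this class, was at 1.10, 10.001 and 19.8 FPKM and Zfp36, which encodes an RNA-destabilising protein, at 2.46, 8.77 and 32.1 FPKM. The lower member was Dusp6, a phosphatase that restrains ERK and is a readout of FGF signalling, at 19.0, 7.83 and 6.24 FPKM. All cells went through sorting before RNA was made, and the part of handling in these values was not tested.

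Forkhead genes had 5 of 44 members higher, with Foxp1 at 5.50, 22.0 and 19.8 FPKM and Foxp2 at 5.14, 16.1 and 9.41 FPKM, while Foxp4 of the same subfamily was at 20.8, 24.97 and 18.6 FPKM, under the threshold. The Ebf genes, known from B cells, fat and connective tissue, were all above their E11.5 level. Ebf2 was at 3.80, 19.7 and 19.9 FPKM, Ebf3 at 14.4, 48.2 and 42.1 FPKM and Ebf4 at 1.30, 3.61 and 4.19 FPKM. Ebf1, at 17.5, 35.9 and 32.9 FPKM, ended just under the threshold with a change of 0.99. Nuclear receptors had 3 higher members and 1 lower of 41. Thra, a thyroid hormone receptor gene, was at 3.11, 7.94 and 14.5 FPKM. The lower one was Nr2f1, an orphan receptor of progenitor cells, at 3.42, 0.963 and 0.782 FPKM.

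Hic1 (chromosome 11, 74978067 to 74983757), a zinc finger repressor known as a marker of limb mesenchymal progenitors, led the list of developmental zinc finger factors at 3.38, 31.4 and 31.1 FPKM. That list was mixed, with 8 of 63 members higher and 6 lower. Of its 35 members that averaged at least 1 FPKM, 7 were higher and 6 lower as deposited, and 3 and 7 with size factors between the libraries. Its lower genes included Mecom, a regulator of stem and progenitor cells, at 62.0, 21.7 and 10.02 FPKM. Sall1, Sall3 and Sall4, the spalt-like factors of limb outgrowth, were all lower, unlike Sall2 at 7.37, 8.35 and 6.53 FPKM. Sall1 was at 18.6, 8.76 and 2.42 FPKM, Sall3 at 3.05, 0.251 and 0.0328 FPKM and Sall4 at 2.48, 0.198 and 0.0335 FPKM. Zbtb16, known for its part in hindlimb patterning, was at 2.72, 0.269 and 0.313 FPKM.

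Homeobox genes outside the Hox clusters had 10 of 88 members higher and 5 lower. The lower ones were Meis1, Meis2, Lhx2, Lhx9 and Shox2. Meis1 and Meis2, which mark the proximal limb, were at 14.0, 4.48 and 7.61 FPKM and 16.1, 5.04 and 6.28 FPKM, while Meis3 was at 1.13, 1.98 and 5.09 FPKM. Lhx2 and Lhx9, LIM-homeodomain genes of the distal limb, were at 9.02, 3.31 and 2.09 FPKM and 16.4, 6.07 and 3.22 FPKM. Shox2, needed for the proximal limb skeleton, was at 60.6, 27.8 and 15.7 FPKM. On the higher side, Irx1 was at 0.0698, 4.69 and 1.495 FPKM and the other Iroquois gene past the threshold, Irx2, at 0.137, 1.37 and 1.11 FPKM, both highest at E13.5. Irx3 went the other way, at 2.13, 0.569 and 0.540 FPKM, with a change of -0.995 that did not reach 2-fold.

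Of 39 Hox genes none was higher and 3 were lower. Those were Hoxc10 at 30.4, 12.4 and 19.6 FPKM, Hoxd9 at 10.9, 4.73 and 2.82 FPKM and Hoxa7 at 2.64, 0.648 and 0.544 FPKM. Of the 21 that averaged at least 1 FPKM, 17 were below their E11.5 level and 4 above it, with a median change of -0.52. With size factors 5 Hox genes were lower, while among those that averaged at least 5 FPKM the median change was -0.08. The 4 of the 21 above their E11.5 level were Hoxa10, Hoxa13, Hoxd12 and Hoxd13. Hoxd13, which patterns the autopod, was at 29.5, 47.8 and 16.5 FPKM with a change of 0.68. Basic helix-loop-helix genes had 4 of 67 members higher (5.97%) and 1 lower (1.49%), against 3.15% and 0.677% of all genes. The largest increase was that of Bhlhe40, at 0.886, 4.42 and 13.8 FPKM. The lower one was Mycn, the Myc family gene of proliferating embryonic progenitors, at 8.24, 1.90 and 0.769 FPKM. Myc was at 7.20, 11.2 and 21.6 FPKM and Max, the shared partner of Mycn and Myc, at 16.7, 16.3 and 25.1 FPKM.

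**Figure D3:**
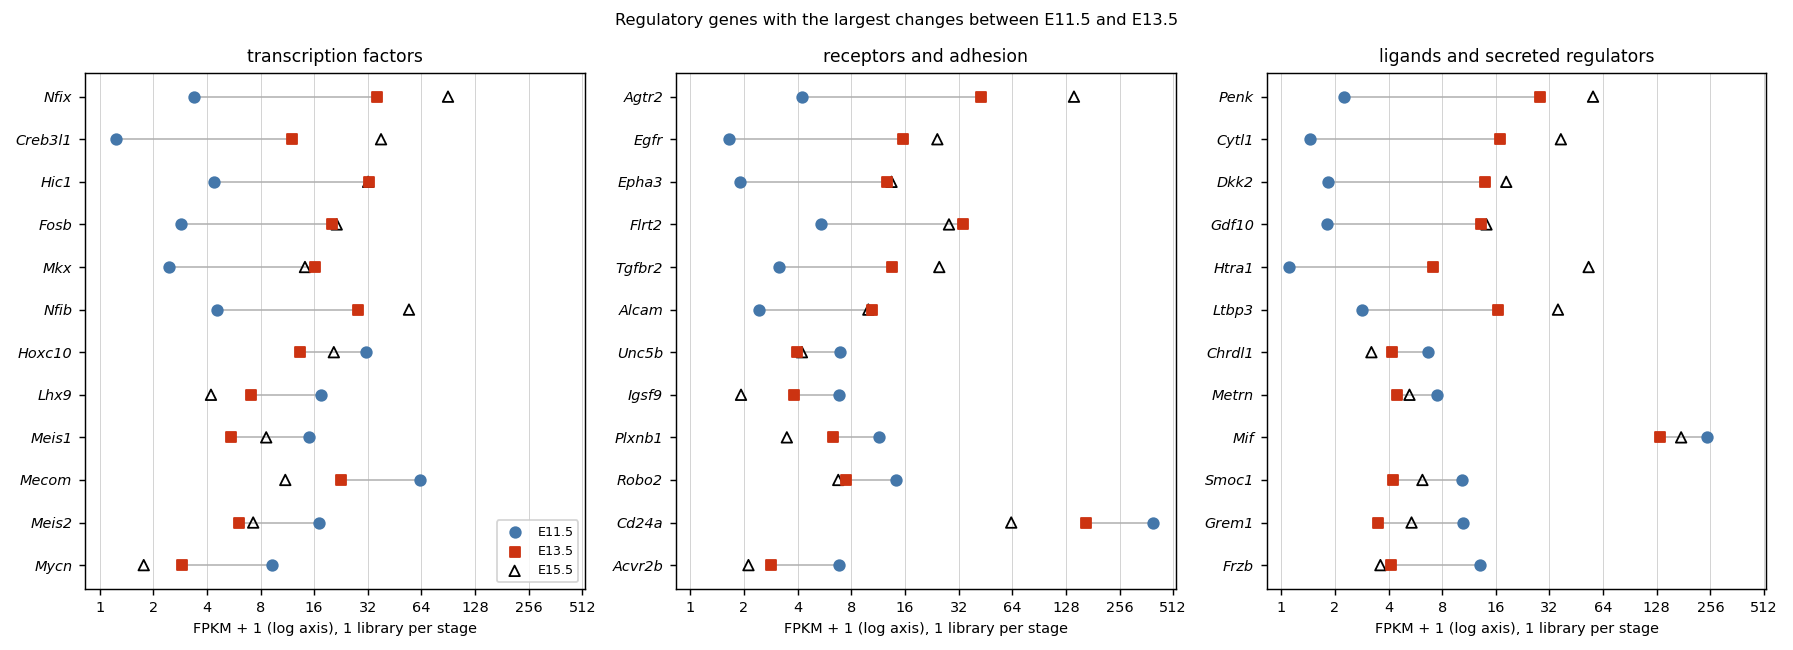
Levels of the 6 largest increases and 6 largest decreases of each regulatory role, as FPKM + 1 on a log axis, 1 library per stage (circles E11.5, squares E13.5, open triangles E15.5). Nfix, Agtr2 and Penk top their panels at 35.0, 41.5 and 27.2 FPKM at E13.5, and among receptors only Acvr2b and Cd24a of the 6 decreases shown passed 2-fold.

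Among receptors and adhesion molecules nearly all genes past the threshold were on the higher side, and 2 of 698 were lower. Agtr2 (chromosome X, 21061752 to 21065957) had the largest change among them. It encodes the type 2 angiotensin receptor, which is abundant in fetal mesenchyme, and was at 3.25, 41.5 and 141 FPKM. The type 1 receptor gene Agtr1a was at 0.745, 2.83 and 4.47 FPKM, and Agt, which encodes the precursor of their ligand, was listed at 0 in the 2 libraries compared. The G protein-coupled receptors as a list had 8 higher members of 285 (2.81%), against 3.15% of all genes. Of the 49 that averaged at least 1 FPKM 7 were higher (14.3%), against 5.76% of all genes so filtered.

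Receptor tyrosine kinases and their co-receptors had 8 of 47 members higher and none lower. Egfr (chromosome 11, 16652206 to 16813910), the receptor of epidermal growth factor, was at 0.641, 14.5 and 23.3 FPKM, while its partner genes Erbb2 and Erbb3 were at 5.36, 7.82 and 7.92 FPKM and 0.597, 0.540 and 0.839 FPKM. The EGF family ligands measured in the same cells were low. Hbegf was at 0.389, 0.814 and 1.45 FPKM, Tgfa at 0.456, 0.639 and 0.787 FPKM and Egf at 0.139, 0.101 and 0.187 FPKM. Axl, a receptor of growth arrest proteins, was at 3.97, 15.8 and 26.5 FPKM, and its ligand genes Gas6 and Pros1 were at 0.171, 1.54 and 9.73 FPKM and 0.852, 3.40 and 8.402 FPKM. The other receptors of that family, Mertk and Tyro3, were at 10.7, 8.03 and 6.72 FPKM and 4.29, 3.49 and 3.38 FPKM, without an increase.

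Some receptor genes of neurotrophic factors, spread over several lists, were set side by side after their values were seen. Ngfr, the low-affinity neurotrophin receptor, was at 1.62, 7.06 and 26.0 FPKM and Ntrk2, the receptor of brain-derived neurotrophic factor, at 0.228, 2.90 and 11.53 FPKM. Gfra1, Gfra2 and Gfra4, co-receptors of the GDNF family, were at 0.849, 3.52 and 5.92 FPKM, 1.06, 4.66 and 5.08 FPKM and 1.44, 4.002 and 7.46 FPKM. Ntrk3 and Gfra3, of the same families, did not reach 2-fold, with changes of 0.64 and 0.54. The signalling receptor Ret was at 0.0186, 0.0469 and 0.158 FPKM, near 0 in each library.

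Of 27 guidance receptors 5 were higher, and of 14 Eph receptors 2. Epha3 (chromosome 16, 63545044 to 63863983), a receptor of membrane-bound ephrins, was at 0.894, 11.6 and 12.4 FPKM and the ephrin gene Efna5 at 4.19, 10.4 and 7.74 FPKM. Flrt2, a leucine-rich repeat protein that binds latrophilins and Unc5 receptors, was at 4.42, 33.0 and 27.2 FPKM. The latrophilin gene Lphn3 was at 7.14, 27.7 and 18.5 FPKM and Unc5c at 3.45, 9.56 and 3.97 FPKM. Flrt2, Lphn3 and Unc5c were highest at E13.5. Unc5b, of the same family as Unc5c, went the other way, at 5.895, 2.97 and 3.22 FPKM, with a change of -0.80 that did not reach 2-fold. Slit2 was at 2.21, 5.90 and 7.32 FPKM, while of its receptors Robo1 was at 16.7, 31.2 and 21.2 FPKM and Robo2 at 13.2, 6.43 and 5.75 FPKM, neither past 2-fold.

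Among cytokine receptors 6 of 75 were higher and none lower. Ghr, the growth hormone receptor, was at 4.36, 13.7 and 19.8 FPKM. Il6st encodes gp130, the shared chain of the interleukin-6 family, and was at 9.26, 29.2 and 49.4 FPKM, while Lifr was at 4.58, 6.23 and 12.2 FPKM. Among the TGF-beta and BMP receptors, Tgfbr3, which encodes betaglycan, was at 1.70, 8.36 and 11.1 FPKM, and the activin receptor gene Acvr2b was lower, at 5.81, 1.83 and 1.12 FPKM.

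Adhesion molecules of the immunoglobulin and related families had 17 of 65 members higher and 1 lower. Alcam was at 1.42, 9.39 and 8.96 FPKM, Ncam1 at 6.22, 19.2 and 21.6 FPKM and the glypican gene Gpc4 at 3.72, 18.1 and 24.7 FPKM. Thy1 and Cd44, surface proteins common on mesenchymal stromal cells, were at 0.117, 2.82 and 6.41 FPKM and 0.331, 2.99 and 22.7 FPKM. Sdk2, a homophilic adhesion molecule known from retinal synapses, was at 0.175, 4.44 and 7.22 FPKM. The lower member was Cd24a, a small glycoprotein of immature cells, at 393, 165 and 62.1 FPKM, still among the 3 receptor and adhesion genes with the highest levels in both libraries. Of 106 cadherins and protocadherins, 3 were higher (2.83%, against 3.15% of all genes), with Cdh4 at 0.457, 4.67 and 4.73 FPKM. Of 32 integrin genes, the 2 higher ones were Itga11 and Itgb1, the latter at 21.9, 45.1 and 61.9 FPKM, and 1 of them passed with size factors.

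Ligands of the TGF-beta and BMP family and their extracellular modulators shape limb mesenchyme and tendon alike. Of 33 TGF-beta and BMP ligand genes 8 were higher and none lower. Bmp2 was at 1.51, 6.21 and 5.03 FPKM, Bmp3 at 1.10, 5.21 and 7.87 FPKM and Bmp5 at 0.943, 6.29 and 8.23 FPKM. Inha, which encodes the inhibin alpha chain, was at 2.51, 6.15 and 5.98 FPKM. Of 33 antagonists and modulators, 13 were higher and 2 lower. Ltbp3 and Ltbp1, which encode latent TGF-beta binding proteins, were at 1.82, 15.4 and 34.7 FPKM and 10.1, 29.2 and 38.8 FPKM. The serine protease genes Htra1 and Htra3 were at 0.110, 6.07 and 52.1 FPKM and 0.278, 5.15 and 33.8 FPKM, both highest at E15.5. Fst, which encodes the activin-binding protein follistatin, was at 0.810, 5.04 and 7.52 FPKM. The follistatin-like gene Fstl1 was at 38.2, 139.8 and 239.7 FPKM, and the BMP antagonist gene Nog was at 0.391, 2.02 and 1.403 FPKM. The 2 lower members, Grem1 and Smoc1, were at 9.45, 2.48 and 4.38 FPKM and 9.28, 3.26 and 5.20 FPKM. Smoc2, the paralog of Smoc1, went the other way, at 1.61, 11.52 and 18.2 FPKM.

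Wnt antagonists were likewise split. Dkk2 (chromosome 3, 131748256 to 131843268), an inhibitor of the Wnt co-receptors, was at 0.841, 12.9 and 17.3 FPKM and Dkk3 at 1.403, 9.85 and 27.9 FPKM. Sfrp2, a secreted frizzled-related protein gene, was at 39.6, 104 and 134 FPKM, and Frzb, of the same family, was lower, at 12.0, 3.11 and 2.60 FPKM. Of 19 Wnt ligand genes only Wnt9a passed the threshold, at 0.438, 2.10 and 3.04 FPKM.

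Penk (chromosome 4, 4060683 to 4065592), which encodes the opioid precursor proenkephalin, had the largest change of any ligand gene, 3.65, at 1.24, 27.2 and 55.2 FPKM. The opioid receptor genes were near 0, with Oprd1 at 0.0124, 0.185 and 0.0894 FPKM, Oprk1 at 0.0275, 0.117 and 0.0640 FPKM and Oprm1 listed at 0 in both libraries. Cytl1 (chromosome 5, 38126758 to 38131059), a cytokine-like gene of cartilage, was at 0.451, 15.9 and 36.1 FPKM, while the cartilage markers summed to 176, 376 and 554 FPKM. Its change was 3.54, with a counting interval of 0.261 to 0.725 FPKM at E11.5. Tac1, which encodes substance P, was at 0.426, 2.68 and 2.33 FPKM.

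Of 15 genes of the IGF and insulin-like family with binding proteins, 3 were higher, and all 3 were binding protein genes. Igfbp5 was at 23.2, 102 and 191 FPKM, Igfbp3 at 7.94, 31.6 and 70.1 FPKM and Igfbp7 at 0.189, 3.90 and 30.7 FPKM. The ligand gene Igf2, with the highest level of any ligand gene in both libraries, was at 847, 993 and 1566 FPKM, and its clearance receptor gene Igf2r, counted among the receptors, was at 15.2, 35.5 and 67.6 FPKM. Igf1 was at 15.4, 22.2 and 118 FPKM and Igf1r at 19.98, 22.4 and 17.6 FPKM. Of 41 guidance ligands 8 were higher and none lower, and 3 were higher with size factors. Among them was Sema3c, a secreted semaphorin gene, at 1.29, 6.42 and 20.1 FPKM, with Sema3a at 6.36, 14.6 and 18.1 FPKM. Angptl1, an angiopoietin-like gene, was at 1.64, 9.996 and 28.3 FPKM, and the Ccn family gene Wisp1 at 0.445, 5.02 and 13.4 FPKM.

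Of 806 transporters and channels 3.47% were higher, near the 3.15% of all genes, and 0.372% were lower, against 0.677%. No list had more than 5 members past 2-fold. Kctd12 (chromosome 14, 103375798 to 103381854) encodes an auxiliary subunit of GABA-B receptors and was placed with the potassium channel genes for its domain. It was at 4.55, 57.1 and 67.0 FPKM. The GABA-B receptor genes themselves did not reach 2-fold, with Gabbr1 at 4.35, 6.21 and 4.67 FPKM and Gabbr2 at 0.0215, 0.0289 and 0.0665 FPKM. Fam38b, the older symbol of Piezo2, encodes a channel opened by membrane stretch and was at 0.831, 13.3 and 15.9 FPKM. Its paralog Fam38a, now Piezo1, was at 2.23, 4.87 and 11.2 FPKM, with a change of 0.86.

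Of the 84 sodium, calcium and TRP channel genes, 5 were higher. Besides Fam38b these were Trpm5 at 0.388, 4.27 and 7.70 FPKM, Trpm3 at 0.409, 2.66 and 2.36 FPKM, Trpc5 at 0.0517, 1.45 and 2.48 FPKM and Cacna2d1, an auxiliary calcium channel subunit gene, at 2.05, 5.78 and 6.11 FPKM. Ion pumps had 4 higher members of 42. Atp2b4, a calcium pump gene of the plasma membrane, was at 2.43, 9.29 and 12.6 FPKM. The other 3, Atp1b2, Fxyd1 and Fxyd7, encode subunits or modulators of the sodium-potassium pump, and Fxyd1 was at 1.91, 5.98 and 11.9 FPKM. The 25 genes of the vacuolar proton pump, the 33 chloride channel and anoctamin genes and the 31 carriers of nucleosides, vitamins and lipids had none past 2-fold. With 3.15% of all genes higher and 0.677% lower, such counts in lists of this size do not set them apart.

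Among carriers, Slc2a3, a high-affinity glucose transporter gene, was at 2.03, 8.11 and 5.24 FPKM, highest at E13.5, and Slc2a1, the more abundant one, was at 12.0, 12.7 and 20.5 FPKM. Slc26a7, an anion exchanger gene, was at 0.0137, 3.75 and 5.45 FPKM, close to 0 at E11.5. The water channel gene Aqp1 was at 0.0574, 2.48 and 17.1 FPKM. The iron exporter gene Slc40a1 was at 0.347, 1.90 and 3.82 FPKM and the iron uptake receptor gene Tfrc at 7.44, 4.26 and 5.78 FPKM, the latter under the threshold. The lower genes included Slc16a13, a monocarboxylate transporter family gene, at 2.82, 0.863 and 0.651 FPKM and the glutamate receptor gene Gria2 at 3.40, 0.869 and 0.654 FPKM. Gria3, its paralog, was at 1.56, 4.84 and 8.07 FPKM, the opposite direction.

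**Figure D4:**
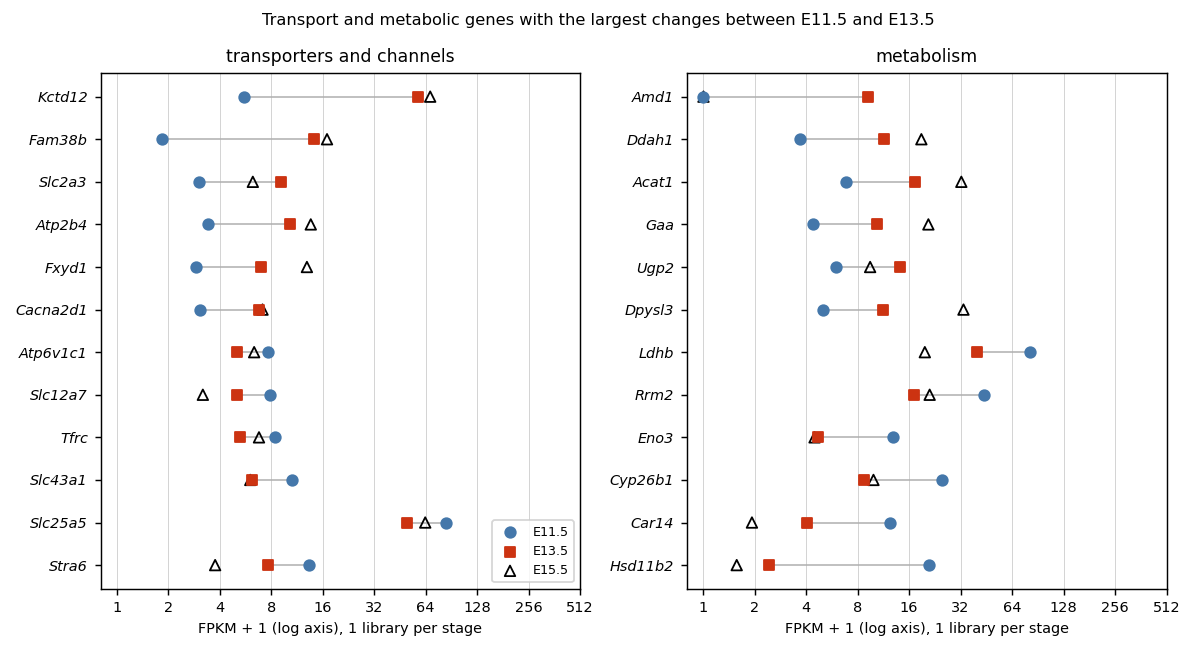
Levels of the 6 largest increases and 6 largest decreases among transporters and channels (left) and metabolic genes (right), as FPKM + 1 on a log axis, 1 library per stage. Kctd12 and Fam38b lead the left panel at 57.1 and 13.3 FPKM at E13.5, none of the 6 decreases shown on the left passed 2-fold, and Amd1 on the right stands near 0 at E11.5 and E15.5.

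Among metabolic genes several core pathways had no member past 2-fold. Of 85 genes of the respiratory chain and ATP synthase none passed in either direction, and 65 of the 80 that averaged at least 1 FPKM were below their E11.5 level (median change -0.24). Atp5b, a catalytic subunit of ATP synthase, was at 526, 372 and 445 FPKM, and Cox5a, of cytochrome oxidase, at 77.8, 47.5 and 47.7 FPKM. The 31 genes of cholesterol synthesis and uptake and the 26 of branched-chain and aromatic amino acid breakdown had none past 2-fold. The citric acid cycle list had 1 of 35 (2.86%), the malic enzyme gene Me1, at 1.02, 4.03 and 5.57 FPKM. With 3.15% of all genes higher and 0.677% lower, such counts in lists of 26 to 35 genes do not set them apart.

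In glycolysis 2 of 28 genes were lower and none higher. Eno3, the enolase gene typical of muscle, was at 12.0, 3.71 and 3.48 FPKM, lower at E13.5, while 6 of the 19 muscle markers were higher. Ldhb, a lactate dehydrogenase subunit gene, was at 80.4, 39.0 and 18.8 FPKM, and this call was lost when both libraries were rescaled to the same FPKM sum. Ldha, the other main subunit, was at 98.3, 88.9 and 141 FPKM. Several abundant glycolytic genes were lower without reaching 2-fold, such as Pkm2 at 149, 80.1 and 93.7 FPKM and Gapdh at 726, 443 and 517 FPKM, with changes of -0.88 and -0.71. Both E15.5 values lay above those of E13.5.

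Glycogen and sugar-nucleotide genes had 4 of 23 members higher and none lower. Ugp2, which makes UDP-glucose, was at 4.94, 13.1 and 8.47 FPKM, and Gaa, the lysosomal glycogen-degrading enzyme, at 3.37, 9.37 and 19.7 FPKM. Ppp1r3c, a glycogen-targeting subunit, was at 0.688, 2.90 and 8.13 FPKM, and Pgm5, a member of the phosphoglucomutase family that is found at adhesion sites, was at 0.514, 4.68 and 6.47 FPKM. Papss2 (chromosome 19, 32670205 to 32741677), which makes the sulfate donor for proteoglycans and stands on no list, was at 1.70, 23.1 and 15.54 FPKM, and its paralog Papss1 at 12.4, 19.2 and 18.7 FPKM.

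The largest metabolic decrease was in steroid handling. Hsd11b2 (chromosome 8, 108042646 to 108047888), which inactivates glucocorticoids, was at 19.98, 1.44 and 0.570 FPKM, with counting intervals of 18.95 to 21.05 at E11.5 and 1.14 to 1.78 at E13.5. The glucocorticoid receptor gene Nr3c1 was at 0.334, 2.20 and 6.11 FPKM, higher at E13.5. H6pd, which supplies NADPH inside the endoplasmic reticulum, was at 1.95, 5.63 and 9.55 FPKM, while Hsd11b1, the enzyme that activates glucocorticoids there, was listed at 0 in both libraries. Hsd11b2 was thus lower where Nr3c1 and H6pd were higher.

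Retinoid genes differed in both directions. Rdh10 and Aldh1a3, which take part in making retinoic acid, were at 1.08, 3.47 and 3.25 FPKM and 0.0231, 1.48 and 4.82 FPKM, while Aldh1a2, the main limb enzyme of that step, was at 7.85, 8.13 and 5.45 FPKM. Cyp26b1, which degrades retinoic acid, was at 23.9, 7.72 and 8.90 FPKM. Of the binding proteins, Crabp1 was at 79.1, 178 and 184 FPKM and Crabp2 at 117, 83.4 and 55.4 FPKM. Stra6, which brings retinol into cells, was at 12.3, 6.69 and 2.76 FPKM, under 2-fold.

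Other enzyme genes past the threshold were isolated members of their lists. Ddah1, which degrades methylarginine inhibitors of nitric oxide synthesis, was at 2.70, 10.4 and 17.9 FPKM. Acat1, of ketone body and isoleucine metabolism, was at 5.86, 16.3 and 31.3 FPKM. Sgms1, a sphingomyelin synthase gene, was at 1.59, 4.58 and 9.23 FPKM. Of the carbonic anhydrases Car12 was at 1.11, 4.05 and 3.50 FPKM and Car14 at 11.3, 3.02 and 0.928 FPKM, in opposite directions. Rrm2, the regulated subunit of ribonucleotide reductase, was lower at 42.6, 16.01 and 20.1 FPKM, and Elovl2, of long fatty acid elongation, at 3.50, 0.868 and 0.455 FPKM. Amd1, of polyamine synthesis, was at 0.00265, 8.14 and 0.00376 FPKM, and its near-identical copy Amd2, left out for its status, was at 13.1, 3.02 and 10.4 FPKM. Since reads could be split between the copies, the value of Amd1 is uncertain. The same holds for Pnp, at 6.28, 2.62 and 4.71 FPKM, with its copy Pnp2.

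**Figure D5:**
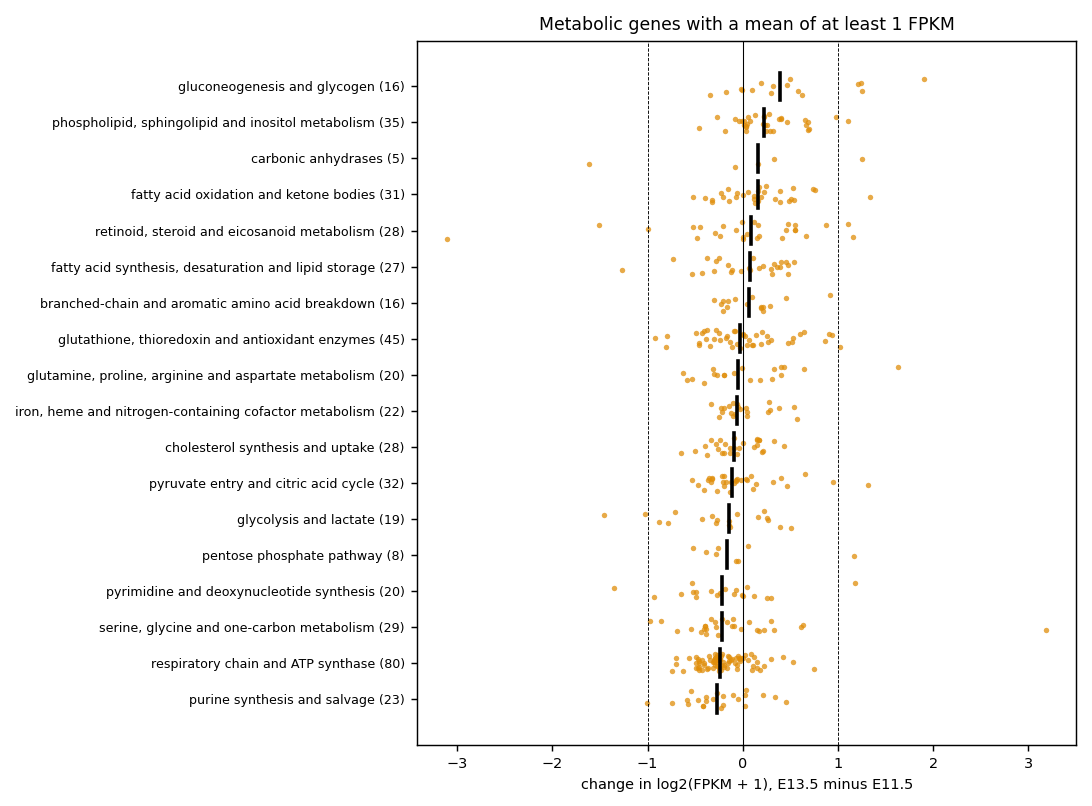
Change of each metabolic gene that averaged at least 1 FPKM (points, number per list in brackets) and the median of each list (black bars), on the log2(FPKM + 1) scale, E13.5 minus E11.5. Dashed lines mark 2-fold; most points lie between them, the respiratory chain list has its median at -0.24, and the single far left point is Hsd11b2 at -3.11.

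Growth and housekeeping lists had few members past 2-fold, where 3.15% of all genes were higher and 0.677% lower. None of 37 cell cycle genes passed 2-fold, 30 of them were below their E11.5 level and the median change was -0.42. Among 38 DNA replication genes none passed, 37 were below and the median was -0.42 as well. Ribosomal protein genes had none of 81 past 2-fold and a median of -0.22 over the 78 that averaged at least 1 FPKM. The 15 housekeeping genes also had none past 2-fold, with 12 below their E11.5 level and a median of -0.14. These medians compare with 0.06 for all genes so filtered, and none of them changed sign under the 3 other scalings tried. The ribosomal median thus lay nearer to that of the housekeeping genes than to that of all genes. With size factors, 2 cell cycle genes and 1 replication gene reached 2-fold lower. Of the cyclins, Ccnb1 was at 30.3, 17.8 and 17.6 FPKM, whereas Ccnd2, of the G1 phase, was at 34.3, 53.4 and 48.6 FPKM. Of 18 cell cycle inhibitor genes, 3 were higher: Gadd45b at 2.82, 6.86 and 9.27 FPKM, Gadd45g at 5.19, 15.01 and 12.0 FPKM and Rbl2 at 1.03, 3.24 and 4.68 FPKM. With size factors 1 of the 3 remained past 2-fold. Endoplasmic reticulum folding genes had none of 30 past 2-fold, with 23 of 29 above their E11.5 level and a median of 0.39. Hspa5, the main chaperone of that compartment, was at 149.8, 222 and 248 FPKM.

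Embryonic RNA-binding and chromatin genes had the largest share of lower members, 7 of 39 (17.9%), and 1 higher. Lin28b, Lin28a and Trim71 belong to the let-7 axis of early embryonic cells, and all 3 were lower. Lin28b was at 6.77, 0.961 and 0.0673 FPKM, Trim71 at 4.71, 0.654 and 0.0946 FPKM and Lin28a at 1.17, 0.0195 and 0 FPKM, the last listed at 0 at E15.5. Msi1, an RNA-binding protein of stem cells, was at 20.3, 7.37 and 6.85 FPKM, and Cbx2, a Polycomb subunit, at 19.98, 8.70 and 5.71 FPKM. Hmga1, an architectural chromatin protein gene, was at 185, 49.0 and 39.7 FPKM. Its value is uncertain because near-identical copies can share its reads. The higher member was Rbms3, an RNA-binding protein of mesenchyme, at 5.68, 17.4 and 20.5 FPKM.

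Beyond the lists, 423 genes were higher and 106 lower. Counting genes that reached 10 FPKM in one of the libraries, the largest change was that of Postn, a matrix gene, at 0.737, 73.9 and 417 FPKM. Anxa2, which encodes a calcium-dependent membrane-binding protein, was at 1.41, 22.5 and 57.1 FPKM, and S100a10, whose product forms a complex with annexin A2, was at 2.35, 20.6 and 71.6 FPKM. The vimentin gene Vim was at 51.6, 153 and 309.6 FPKM. S100a10 and Vim were chosen after their values were seen. Snord58b, a small nucleolar RNA placed at several loci, was listed at 0 and at 20.3 FPKM, and its value cannot be assigned to one locus.

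The largest decreases beyond the lists were those of Lix1, a limb-expressed gene, at 14.7, 2.40 and 1.20 FPKM, Fndc3c1 at 32.1, 7.16 and 5.63 FPKM and Asb4 at 81.4, 23.9 and 19.9 FPKM. Terc, the RNA component of telomerase, was at 11.38, 3.81 and 2.30 FPKM, while Tert, its protein component, was at 3.08, 2.63 and 1.99 FPKM. Rcor2, a corepressor gene of stem cells, was at 16.1, 6.37 and 6.43 FPKM. Asb4, Casd1 and Peg10 lie close together on chromosome 6, between positions 4551066 and 5383021. Casd1 was at 29.6, 12.4 and 10.5 FPKM and the imprinted gene Peg10 at 145, 62.8 and 111 FPKM. Sgce, which shares that region, was at 8.39, 9.37 and 16.1 FPKM, so the lower levels were not shared by every gene there.

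The sequence just before the transcription start was read for the genes with the largest increases and decreases of each role and beyond the lists. A RefSeq promoter table (GRCm38.p6) holds 68 of these 91 genes, of which 34 were increases and 34 decreases. The motif TATAAA was searched on the strand of the gene, from 40 to 15 bases before the start. It was found for 4 of the increases and 0 of the decreases, and in 692 of the 32851 windows of the table (2.11%). A gene was counted if any of its windows matched, whereas 2.11% is a share of windows, so the units differ. The 100 bases before the start of these 4 genes are shown because they are the ones with a match among the 68 searched. Capitals mark the motif. The Dkk2 window is chr3:132085192-132085291, that of Fos chr12:85473790-85473889, that of Postn chr3:54361007-54361106 and that of Anxa2 chr9:69453583-69453682, all on the plus strand. The motif begins 32 bases before the start in Dkk2, 33 in Fos, 26 in Postn and 17 in Anxa2. A match describes letters in a window and no factor was measured there.
Dkk2: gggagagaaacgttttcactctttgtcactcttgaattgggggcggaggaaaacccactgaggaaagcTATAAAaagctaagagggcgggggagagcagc
Fos: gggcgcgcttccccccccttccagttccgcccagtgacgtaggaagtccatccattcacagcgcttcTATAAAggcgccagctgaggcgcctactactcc
Postn: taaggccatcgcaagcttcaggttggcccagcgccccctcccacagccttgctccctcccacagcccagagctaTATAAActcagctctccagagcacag
Anxa2: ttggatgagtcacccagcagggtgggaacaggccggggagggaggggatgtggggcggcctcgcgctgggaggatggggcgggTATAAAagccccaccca

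Neighbouring genes that were higher together were listed along each chromosome, counting genes that averaged at least 1 FPKM. There were 6 runs of 3 adjacent higher genes, none longer, and no such run of lower genes. Of all genes so filtered 5.76% were higher and 1.12% lower, so lower genes had far less room to form a run. How many runs arise without any link between neighbours was not tested. On chromosome 12 the run was Begain, Dlk1 and Meg3 (110270392 to 110809939), of which Dlk1 and Meg3 are imprinted. Meg3, a long noncoding RNA, was at 27.5, 85.5 and 144 FPKM, and Rian, another noncoding RNA of that region, was at 26.6, 77.3 and 137 FPKM. Dlk1, which encodes a membrane protein of progenitor cells, was at 7.61, 44.3 and 245 FPKM, and it is known to be expressed from the paternal allele while Meg3 is expressed from the maternal one. On chromosome 19 the run held Smarca2, an ATPase of the SWI/SNF chromatin complex, at 23.7, 82.0 and 83.6 FPKM, with Dmrt2 at 1.57, 6.91 and 6.06 FPKM and Vldlr at 0.276, 1.84 and 2.66 FPKM. The runs on chromosomes 1 and 10 held small leucine-rich proteoglycan genes, Prelp and Fmod in one and Dcn, Lum and Kera in the other. Those on chromosomes 2 and 3 were Fjx1, Pamr1 and Cd44, and Arsj, Camk2d and Ank2. The strand setting is not given in the sources used here, so reads of overlapping or antisense neighbours cannot be told apart.

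The share of each transcript within its gene was compared for 536 genes with several transcripts and at least 10 FPKM in both libraries. The median of the largest share difference per gene was 5.04 percentage points, and 15 genes reached 30 points. Tpm1, which encodes the actin-binding protein tropomyosin 1, was among the 6 largest. The transcript with the highest share at E11.5 went from 36.6% to 0.190% of the gene's FPKM, and another went from 3.004% to 44.6%, while the gene sum was 48.7, 165 and 124 FPKM. At E15.5 the latter stood at 1.52%, so its share at E13.5 was not carried on. Jarid2, a Polycomb-associated factor, had its most abundant transcript at 53.6%, 95.7% and 50.4% in stage order. Dyrk1a, a kinase gene, had 1 transcript at 58.9%, 99.95% and 82.4%. Such shares are divided by an estimate among transcripts that share most of their sequence. In Spag7, with transcripts of 1161 and 1131 bases, the longer one had 97.6%, 50.5% and 99.96%.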

How the data were processed

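Total RNA of GFP-sorted hindlimb cells was sequenced in 1 library per stage. The deposited tables give FPKM per transcript, computed by the authors, with a coverage value (signal) that the authors' quantification also wrote per transcript. The submitters' processing notes name Bowtie 0.12.7, TopHat 1.4.1 and the build mm9, with no role or order. For the quantifier's version, annotation release and strand setting, nothing was found: not given in the sources used here.

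FPKM were summed per gene symbol, and genes with a status other than OK in either compared library were left out. The change was log2(FPKM + 1) at E13.5 minus E11.5, with 2-fold as the threshold. Reads were estimated from deposited coverage and length, and the 95% Poisson intervals on those reads hold counting error and no other. With 1 library per stage no test was made. Of the list entries, 23 matched no symbol. Members and lists were chosen with earlier results of these data known.

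Named genes were, per role, the 6 largest increases and decreases that reached 5 FPKM in either library and the 3 highest in both. Beyond the lists they were the 10 largest each way with at least 10 FPKM, and for each list its largest changes past 2-fold, with the called members of lists holding 5 or fewer. Families could be given in full, and other genes were chosen after their values were seen.

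Alternatives covered pseudocount, level filter, scaling, status, gene length and transcript rows. Python 3.11.15, numpy 2.4.6, pandas 2.3.3 and matplotlib 3.10.9 were used, and the calculation was tested on simulated data. Promoter windows came from a RefSeq table of GRCm38.p6, and no coordinates were converted between builds. Values of a few list members are not reported here.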

Additional observations from a re-analysis of the deposited data

How the results depend on the processing

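The count of higher genes was 689, and with a pseudocount of 0.1 it was 2072, while a minimum mean of 5 FPKM left 276. The count of lower genes was 148, and it was 530 with the pseudocount of 0.1, 50 with the mean of at least 5 FPKM, 98 without genes under 200 bases and 352 with each transcript row on its own. The 15 genes with a transcript share difference of 30 points became 5 at 20 FPKM. The smaller counts came with fewer genes tested. By its arithmetic, a smaller pseudocount reduces the changes of weakly expressed genes less. For the transcript rows the cause was not tested. Higher genes were 82.3% of those past 2-fold, 74.6% with size factors (590 higher, 201 lower) and 84.1% after rescaling to equal sums (721 and 136). The median change of genes averaging at least 1 FPKM moved from 0.06 to -0.06 with size factors, so small list medians have no fixed sign. No named gene past 2-fold changed sign, but the alternatives could not have shown such a reversal. Filters and pseudocounts leave the sign of a change as it is, and the scalings shifted changes by far less than 2-fold. Of 131 named genes past 2-fold, Ldhb and Pnp lost the call after rescaling, and calls lost with size factors included Brp44, Epcam and Sepp1. The exclusion of short genes and the size factors from genes with a mean of at least 1 FPKM (641 higher, 169 lower) were chosen after seeing the data. No paired analysis was possible because each stage has 1 library, and none could be left out for the same reason. Pooling of embryos gives no measure of variation between them.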

Other observations

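Of 551 microRNA genes with status OK, 21 were higher at E13.5, 18 of them listed at 0 at E11.5, and 29 were lower, 26 of them listed at 0 at E13.5. Over all genes with status OK 3.15% were higher and 0.677% lower, so the count of higher microRNA genes does not set them apart. The microRNA values describe reads over the listed short genes only.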
